A study of Homo sapiens with 12 samples.

Results

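The genes described here are YAP1 and WWTR1 (which encodes TAZ), TEAD1 and TEAD4, and 6 genes widely used as readouts of their activity: CCN1, CCN2, ANKRD1, AMOTL2, AJUBA and LATS2. They were matched by symbol, and all 10 were found among the 61044 gene identifiers of the deposited table. All 10 also passed the filter on low counts that left 17532 genes for testing. The RNA came from SCC-15, an established human line grown from a squamous carcinoma of the mouth, harvested 48 hours into the experiment. Control cells carried a negative-control short hairpin RNA (NC), and the other cells carried shRNA1, shRNA2 or shRNA3, each directed against FMOD, which encodes the collagen-binding proteoglycan fibromodulin. Each of the 4 groups had 3 libraries, 12 in all. The labels give no promoter or vector for the hairpins, do not say whether a knockdown line was a clone or a pool, and do not say that libraries of a group came from separate cultures, so p-values measure the spread between these libraries, which may be technical.

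YAP1 and TAZ are paralogous transcriptional coactivators that do not bind DNA themselves and act mainly through the TEAD family of DNA-binding factors. The Hippo kinases (STK3 and STK4, then LATS1 and LATS2) phosphorylate them, which keeps them in the cytoplasm or leads to their degradation. Several of their targets act back on the pathway, among them LATS2 and the YAP-binding scaffold AMOTL2, while CCN1 and CCN2 encode secreted matricellular proteins. In squamous epithelia and their carcinomas YAP and TAZ are known for promoting proliferation, which the Hippo kinases restrain.

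TEAD factors recognise a short sequence that contains GGAATG, and the promoters of 4 targets are shown because their transcript levels carry most of what follows. RefSeq's promoter table (GRCh38.p14, 250 bases before to 50 bases after each annotated start) held promoters for 7 of the 10 genes, and none was printed for TEAD1, TEAD4 and CCN1. All 4 genes lie on the minus strand, and their windows are chr6:131951323-131951622 for CCN2, chr10:90921038-90921337 for ANKRD1, chr3:134374398-134374697 for AMOTL2 and chr13:21061537-21061836 for LATS2. Each sequence reads 5′ to 3′ along the gene, and capitals mark GGAATG or, for a match on the opposite strand, its reverse complement CATTCC.
CCN2: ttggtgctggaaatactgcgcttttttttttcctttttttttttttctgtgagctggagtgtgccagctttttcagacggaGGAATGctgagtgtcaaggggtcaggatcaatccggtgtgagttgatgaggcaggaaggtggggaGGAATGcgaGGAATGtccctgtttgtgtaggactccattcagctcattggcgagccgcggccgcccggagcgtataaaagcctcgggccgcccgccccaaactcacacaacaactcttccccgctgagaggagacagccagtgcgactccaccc
ANKRD1: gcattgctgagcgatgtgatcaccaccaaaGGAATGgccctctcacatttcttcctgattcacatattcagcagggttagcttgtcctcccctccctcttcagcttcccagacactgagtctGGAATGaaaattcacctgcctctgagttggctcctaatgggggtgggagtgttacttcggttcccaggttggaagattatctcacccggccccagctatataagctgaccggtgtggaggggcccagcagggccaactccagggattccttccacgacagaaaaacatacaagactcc
AMOTL2: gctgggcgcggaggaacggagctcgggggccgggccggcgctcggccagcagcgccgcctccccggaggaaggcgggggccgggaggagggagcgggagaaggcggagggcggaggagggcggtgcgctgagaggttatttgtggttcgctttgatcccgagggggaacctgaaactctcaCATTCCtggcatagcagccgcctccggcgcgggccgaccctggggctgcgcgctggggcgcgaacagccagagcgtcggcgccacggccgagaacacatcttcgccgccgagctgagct
LATS2: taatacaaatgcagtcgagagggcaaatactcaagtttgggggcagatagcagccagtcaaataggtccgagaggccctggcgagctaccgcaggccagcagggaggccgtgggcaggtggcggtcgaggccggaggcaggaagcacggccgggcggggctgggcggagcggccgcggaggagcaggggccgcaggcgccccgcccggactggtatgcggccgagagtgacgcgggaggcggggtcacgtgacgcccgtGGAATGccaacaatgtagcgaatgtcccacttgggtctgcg
The CCN2 window held 3 matches, which began 169, 104 and 95 bases before the start site. The ANKRD1 window held 2, at 220 and 128 bases before it. The AMOTL2 window shown had a single match on the opposite strand, 69 bases before its start, and LATS2 a single match at base 10 of the transcript. A second AMOTL2 promoter, chr3:134375368-134375667, is not shown and held 0. Of the 10 promoters of these 7 genes, 6 held the motif on either strand, 1 each for 6 genes; neither of the WWTR1 promoters did. Across all 35116 promoters of 300 bases in the table, 14.0% held it. A match is a description of the letters in this window and not evidence of binding.

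**Figure D1:**
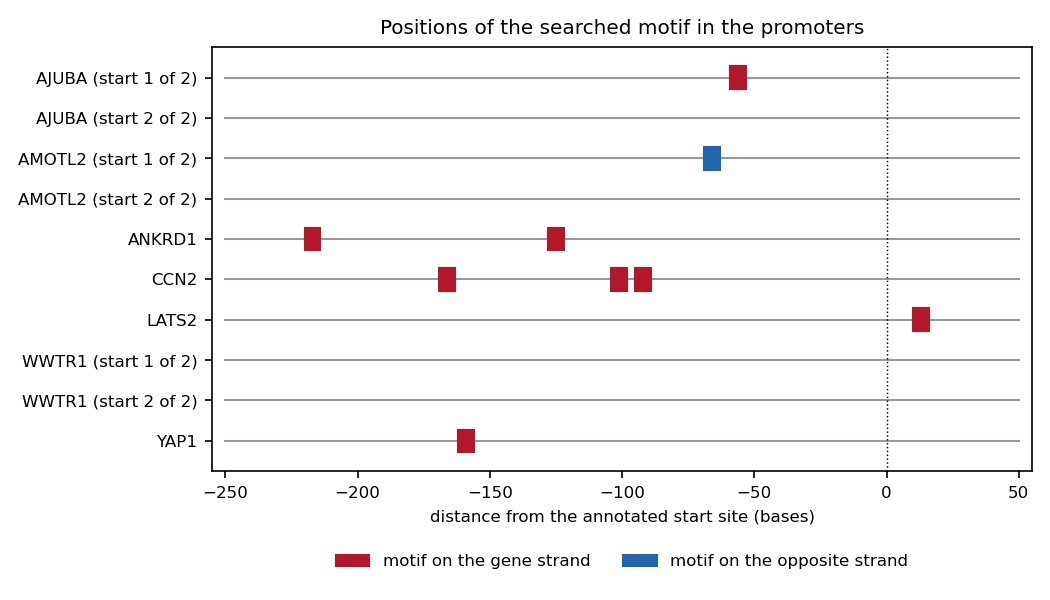
Positions of GGAATG (red, gene strand) and its reverse complement (blue) in the 10 RefSeq promoters of 7 genes, with the distance in bases from the annotated start site on the x axis. The CCN2 promoter has 3 matches and the ANKRD1 promoter 2.

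Library totals ran from 17286934 to 19567192 counts. FMOD itself had 2, 2 and 3 counts in the NC libraries and 0 in all 9 shRNA libraries, which is at or under the limit that a count of 0 allows (3 counts), so the knockdown could not be measured in these data. Libraries 1 and 2 of shRNA3 stood apart from library 3: their TMM scaling factors were 0.771 and 0.795, against 0.979 to 1.11 in the other 10 libraries. Among 14892 genes with a mean of at least 1 CPM (counts scaled to a common library size by edgeR's cpm after TMM), 33.6% differed at least 2-fold (on CPM + 1) between library 3 and the mean of libraries 1 and 2. Values for shRNA3 are therefore given by library, and the fits also without these libraries. All 9 squamous epithelial markers were detected in every library, and their summed CPM was 2357 to 2552 with NC, 1592 to 1996 with shRNA1, 1793 to 1863 with shRNA2 and 1574 to 2681 with shRNA3. Single squamous markers moved both ways: 3, 4 and 5 of the 9 were called higher and 2, 3 and 3 lower with shRNA1, shRNA2 and shRNA3. With every hairpin the keratin gene KRT5 (47.1-fold, 12.6-fold and 13.5-fold) and the cadherin gene CDH1 (8.44-fold, 6.04-fold and 4.89-fold) fell, and the keratin genes KRT14 (7.31-fold, 3.23-fold and 19.6-fold), KRT17 (2.07-fold, 1.83-fold and 2.40-fold) and KRT6A (3.07-fold, 4.64-fold and 2.29-fold) rose. The summed CPM of 6 fibroblast markers was 56.7 to 59.6 with NC and 15.5 to 86.6 in the shRNA libraries, mostly from COL1A1. Other fibroblast markers were scarce: COL1A2 had 89 to 108 counts with NC and 0 to 4 in the shRNA libraries, PDGFRB 190 to 232 and 6 to 22, LUM 14 to 32 and 0 to 1, while DCN had at most 5 and COL3A1 at most 3 in any library. The 6 muscle markers summed to at most 6.82 CPM, the 4 endothelial markers to 17.9 to 23.1 CPM with NC and 4.03 to 14.2 CPM in the shRNA libraries (CDH5 and VWF fell and PECAM1 rose with every hairpin), and the 5 leukocyte markers to 44.5 to 236 CPM, most of it CD68. The part of these marker differences in the results below was not tested, and in bulk RNA fewer cells of a type and less RNA per cell cannot be told apart.

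Most of the target genes were lower with the hairpins, while YAP1, WWTR1 and TEAD4 were level or higher. Against NC, 2 of the 10 genes were higher and 5 lower with shRNA1, where 26.8% and 30.6% of all genes tested were called higher and lower. With shRNA2, 1 was higher and 6 lower (24.6% and 28.4% of all genes). With shRNA3, 3 were higher and 5 lower (26.4% and 27.6% of all genes). These 3 comparisons share the NC libraries. Calls are from edgeR's quasi-likelihood F test at an adjusted p under 0.05. The median log2 fold change of the 10 genes was -0.66, -2.30 and -0.50 for shRNA1, shRNA2 and shRNA3, against -0.02, -0.05 and -0.03 over all genes tested. Without library 3 of shRNA3, 3 genes were higher and 4 lower (32.3% and 40.7% of all genes in that fit). With library 3 as the only shRNA3 library, 2 were higher and 7 lower (28.1% and 28.8% of all genes). When libraries were scaled by their totals alone, 1 was higher and 5 lower with shRNA3 (18.3% and 33.9% of all genes), and the share of higher calls among all genes called fell from 48.9% to 35.1%; this scaling moved the median log2 fold change of all genes to -0.10, -0.18 and -0.35 for the 3 shRNAs.

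**Figure D2:**
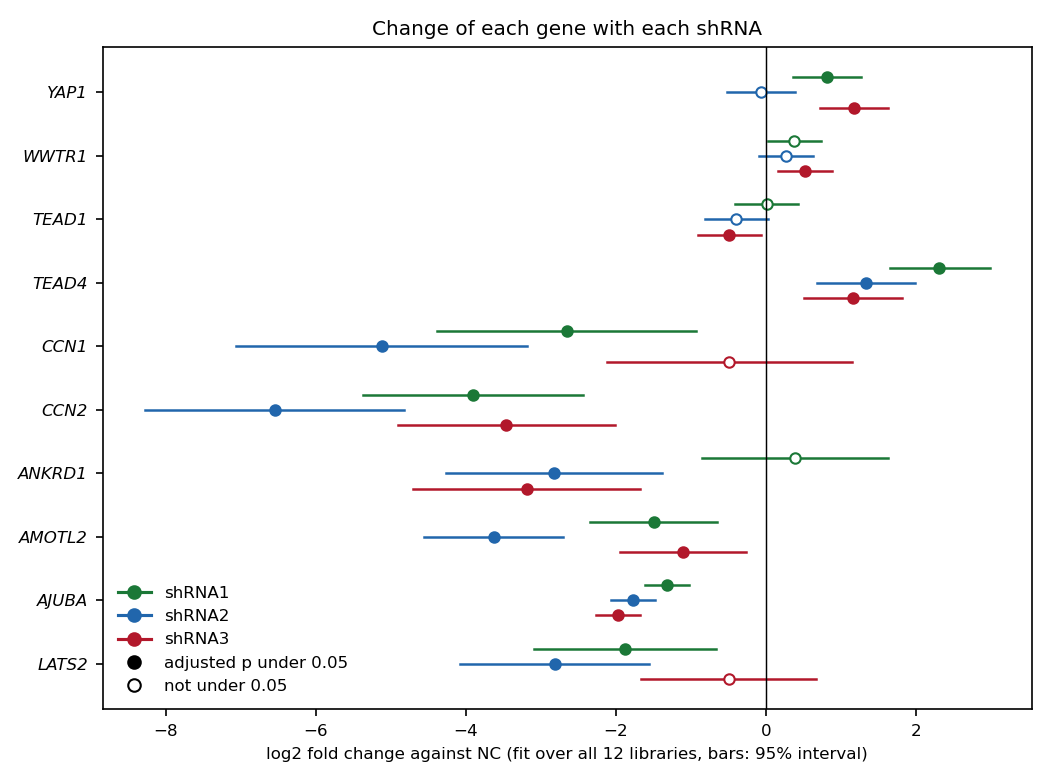
Fitted log2 fold change against NC (x axis) of each of the 10 genes with shRNA1 (green), shRNA2 (blue) and shRNA3 (red); bars are 95% intervals, and filled points have an adjusted p under 0.05. TEAD4 lies to the right of 0 for all 3 hairpins, and CCN2, AMOTL2 and AJUBA lie to the left.

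Neither coactivator gene was called lower than NC with any hairpin. YAP1 (ENSG00000137693, GRCh38 chromosome 11 plus strand, 102110461 to 102233423) stood at 139, 114 and 129 CPM in the NC libraries, 204, 203 and 265 with shRNA1, 115, 129 and 121 with shRNA2, and 351, 320.0 and 193 with shRNA3 (libraries 1 to 3 in each case). The shRNA1 and shRNA3 libraries all lay above NC, and the shRNA2 libraries lay within the NC range. YAP1 rose 1.76-fold with shRNA1 (log2 0.81, SE 0.21, adjusted p = 0.00569, edgeR) and 2.26-fold with shRNA3 (log2 1.17, SE 0.21, adjusted p = 0.000625, edgeR). With shRNA2 the log2 difference was -0.07, with a 95% interval from -0.52 to 0.38. Without library 3 the shRNA3 value was 1.39, and with library 3 alone 0.62, both still called.

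WWTR1 (chromosome 3, 149517235 to 149736714) had NC levels of 136, 127 and 134 CPM. Its levels were 173, 159.5 and 181 CPM with shRNA1, 154, 167 and 156 with shRNA2, and 224, 206 and 138 with shRNA3. All 9 shRNA libraries lay above the NC libraries, the last of them by a narrow margin, and under scaling by totals the groups overlapped. WWTR1 rose 1.43-fold with shRNA3 (log2 0.52, SE 0.16, adjusted p = 0.0188, edgeR), and this call was lost when it rested on library 3 alone (log2 0.09, adjusted p = 0.522) and under scaling by totals (log2 0.14, adjusted p = 0.278). It was also lost without NC library 2 (adjusted p = 0.0644), NC library 3 (0.0504) or shRNA3 library 1 (0.0547), and with only the groups compared (0.0689; edgeR throughout). The intervals for shRNA1 (0.02 to 0.73) and shRNA2 (-0.09 to 0.63) allow a rise of similar size, though neither was called. With only the groups compared, both were called (adjusted p = 0.00697 and 0.000659, edgeR). Under scaling by totals, the rise with shRNA1 was called (adjusted p = 0.0379, edgeR). WWTR1 overlaps an antisense gene, WWTR1-AS1, and whether reads were counted by strand is not given in the sources used here.

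The 2 TEAD genes moved differently. TEAD4 (chromosome 12, 2959330 to 3040673) had 19.3, 22.3 and 19.0 CPM with NC. It had 117, 106 and 78.8 CPM with shRNA1, 53.8, 50.1 and 49.0 with shRNA2, and 32.5, 30.2 and 72.8 with shRNA3. Every shRNA library lay above every NC library. Under scaling by totals the groups overlapped: shRNA3 libraries 1 and 2 had 25.0 and 23.9 CPM, against 24.7 in NC library 2. TEAD4 rose 4.97-fold with shRNA1 (log2 2.31, SE 0.31, adjusted p = 7.32e-05), 2.52-fold with shRNA2 (log2 1.33, SE 0.30, adjusted p = 0.00275) and 2.24-fold with shRNA3 (log2 1.16, SE 0.30, adjusted p = 0.00610; edgeR throughout). The shRNA3 rise was 1.55-fold without library 3 and 3.68-fold with library 3 alone, and under scaling by totals it was no longer called (log2 0.92, adjusted p = 0.0648).

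TEAD1 (chromosome 11, 12674591 to 12944483) had 149, 123 and 139 CPM with NC. With shRNA1 it had 123, 120.3 and 171 CPM, with shRNA2 97.0, 111 and 103, and with shRNA3 120.4, 98.3 and 74.4. The shRNA2 and shRNA3 libraries all lay below the NC libraries, and the shRNA1 libraries spanned them. The fall with shRNA3 was 1.40-fold (log2 -0.49, SE 0.19, adjusted p = 0.0482, edgeR), a call that was lost when any NC library (adjusted p = 0.0552 to 0.137), shRNA3 library 2 (0.136) or shRNA3 library 3 (0.0628) was left out. It was also lost with the replicate number as a block (adjusted p = 0.0735), with no filter on low counts (0.0754) and with only the groups compared (0.162; edgeR throughout). The shRNA3 log2 difference was -0.33 without library 3 and -0.85 with library 3 alone. Without library 1 it was -0.60 and still called (adjusted p = 0.0275, edgeR). With shRNA2 the log2 difference was -0.40, with an interval from -0.82 to 0.02. This fall was called under scaling by totals (adjusted p = 0.0132) and with only the groups compared (0.000147, both edgeR). For shRNA1 the log2 difference was 0.01, with an interval from -0.41 to 0.43, and its sign changed with the scaling.

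Of the secreted targets, CCN2 fell with each hairpin. CCN2 (chromosome 6, 131948176 to 131951373), which encodes connective tissue growth factor, had 78.2, 74.9 and 62.4 CPM with NC. It had 3.18, 5.67 and 5.52 CPM with shRNA1, 0.995, 0.564 and 0.720 with shRNA2, and 8.68, 10.4 and 0.745 with shRNA3. The highest shRNA library, at 10.4 CPM, was still below the lowest NC library. The fall was 15.0-fold with shRNA1 (log2 -3.90, SE 0.67, adjusted p = 0.000460), 93.9-fold with shRNA2 (log2 -6.55, SE 0.79, adjusted p = 3.88e-05) and 11.0-fold with shRNA3 (log2 -3.46, SE 0.66, adjusted p = 0.00100; edgeR throughout). Without library 3, the fall with shRNA3 was 7.52-fold, and with library 3 alone it was 93.7-fold. CCN2 overlaps an unnamed gene, AL133346.1, on the other strand.

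CCN1 (chromosome 1, 85580761 to 85583962), which encodes the related protein CYR61, had 946, 913 and 815 CPM with NC. It had 126, 122 and 175 CPM with shRNA1 and 28.9, 25.2 and 22.9 with shRNA2. With shRNA3 it had 935 and 934 CPM in libraries 1 and 2 but 33.7 in library 3. The first pair lay within the NC range, while library 3 lay just above the shRNA2 libraries. CCN1 fell 6.33-fold with shRNA1 (log2 -2.66, SE 0.79, adjusted p = 0.0132, edgeR), a call that was lost with no filter on low counts (adjusted p = 0.0596). It fell 34.8-fold with shRNA2 (log2 -5.12, SE 0.89, adjusted p = 0.000526, edgeR). The fit gives each gene 1 dispersion over all 4 groups, so the split between the shRNA3 libraries also enters the SE of comparisons without shRNA3. For shRNA3 the log2 difference was -0.49, with an interval from -2.12 to 1.14; it was 0.06 without library 3 (adjusted p = 0.696) and -4.70 with library 3 alone (adjusted p = 1.64e-08), where the lone library is assumed to vary like the other groups. Under scaling by totals, CCN1 had 1035, 1012 and 900.1 CPM with NC and 720.2, 741 and 35.8 with shRNA3, so that no shRNA3 library then reached the NC range.

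ANKRD1 (chromosome 10, 90912096 to 90921276), a nuclear ankyrin-repeat protein best known from stressed heart muscle, was scarce in this line. It had 60, 69 and 26 counts with NC (3.03, 3.40 and 1.32 CPM). With shRNA1 it had 26, 62 and 113 counts, with shRNA2 2, 10 and 7, and with shRNA3 5, 3 and 5. The shRNA1 libraries spanned the NC libraries, and all shRNA2 and shRNA3 libraries lay below them. ANKRD1 fell 7.11-fold with shRNA2 (log2 -2.83, SE 0.66, adjusted p = 0.00359, edgeR) and 9.13-fold with shRNA3 (log2 -3.19, SE 0.69, adjusted p = 0.00230, edgeR), where library 3 was much like libraries 1 and 2. For shRNA1 the log2 difference was 0.38, with an interval from -0.85 to 1.62, and it became -0.26 without shRNA1 library 3.

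**Figure D3:**
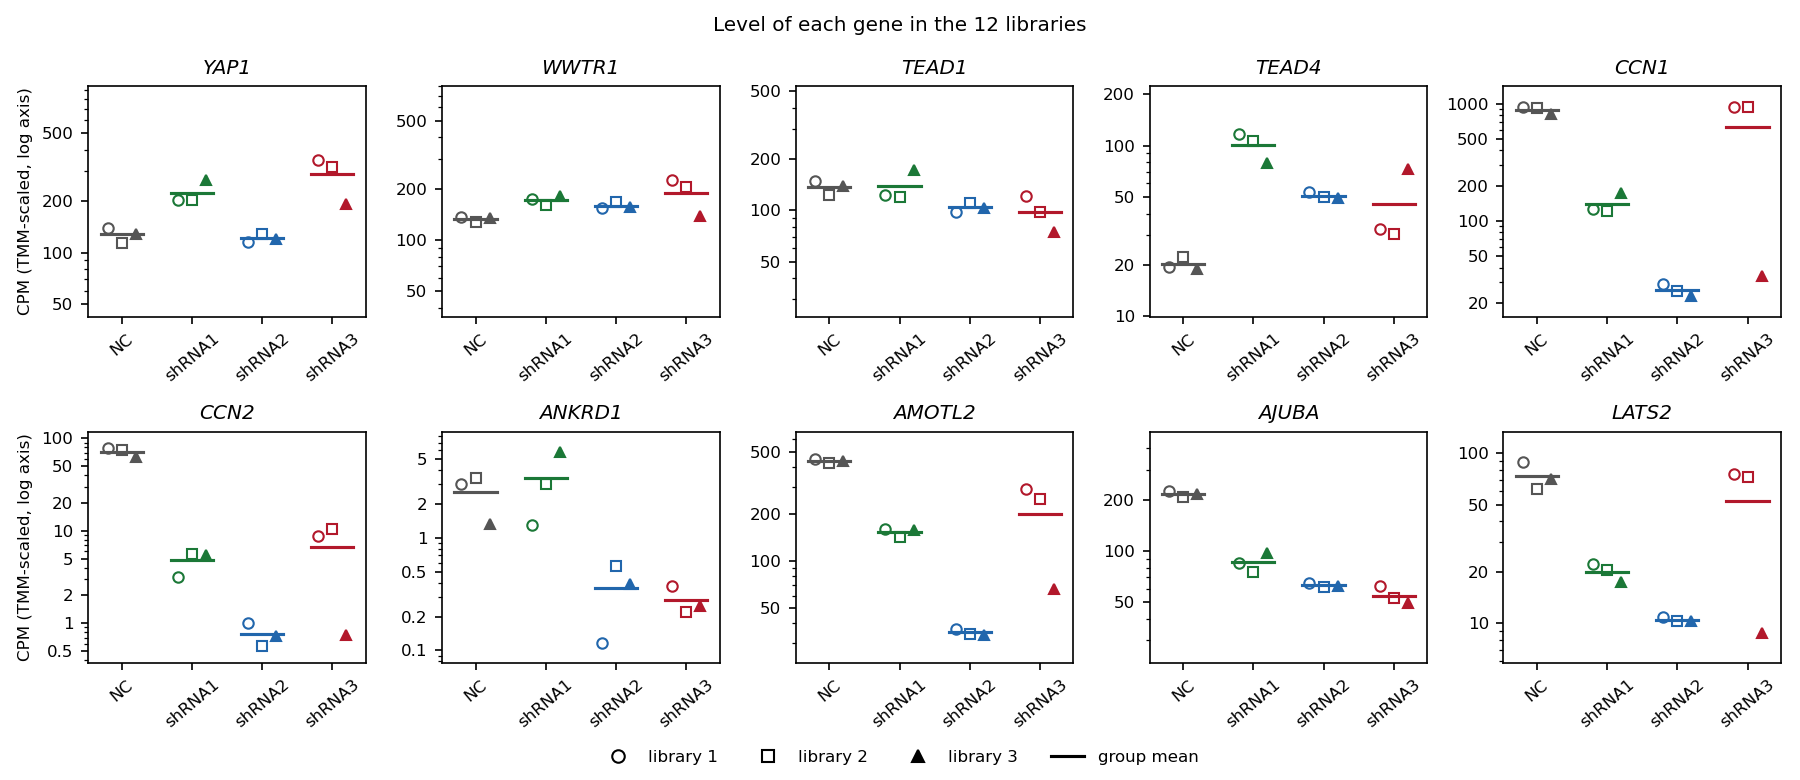
CPM (TMM-scaled, log axis) of the 10 genes in the 12 libraries, by group; symbols mark libraries 1, 2 and 3 and lines the group means. In CCN1 and LATS2, libraries 1 and 2 of shRNA3 sit at the NC level (below it under scaling by totals) and library 3 near the shRNA2 level.

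Among the targets that act back on the pathway, AMOTL2 and AJUBA fell with each hairpin. AMOTL2 (chromosome 3, 134355874 to 134375479), an angiomotin-family scaffold that binds YAP1, had 447, 423 and 435 CPM with NC. It had 161, 143 and 158 CPM with shRNA1, 37.0, 34.3 and 33.7 with shRNA2, and 290.0, 249 and 65.9 with shRNA3. Every shRNA library lay below every NC library. The fall was 2.83-fold with shRNA1 (log2 -1.50, SE 0.39, adjusted p = 0.00613), 12.4-fold with shRNA2 (log2 -3.63, SE 0.42, adjusted p = 2.99e-05) and 2.16-fold with shRNA3 (log2 -1.11, SE 0.38, adjusted p = 0.0285; edgeR throughout). The shRNA3 call was lost when any NC library was left out (adjusted p = 0.0571 to 0.0631); the fall was 1.62-fold without shRNA3 library 3 and 6.45-fold with that library alone.

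AJUBA (chromosome 14, 22971174 to 22982642), a LIM-domain protein that binds and inhibits the LATS kinases, fell with each hairpin with little spread between the libraries of a group. It had 224, 207 and 215 CPM with NC, 84.7, 75.7 and 98.0 with shRNA1, 64.8, 61.4 and 62.7 with shRNA2, and 62.1, 52.8 and 49.5 with shRNA3. The highest shRNA library, at 98.0 CPM, was far below the lowest NC library, and the 3 shRNA3 libraries lay close together. AJUBA fell 2.50-fold, 3.42-fold and 3.93-fold with shRNA1, shRNA2 and shRNA3 (adjusted p = 9.70e-06, 1.42e-06 and 7.37e-07, edgeR).

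LATS2 (chromosome 13, 20973032 to 21061547), the kinase that phosphorylates YAP1 and TAZ, had 89.1, 62.1 and 70.9 CPM with NC. It had 22.3, 20.6 and 17.6 CPM with shRNA1 and 10.9, 10.3 and 10.3 with shRNA2. With shRNA3 it had 75.6, 72.7 and 8.84 CPM, so libraries 1 and 2 lay within the NC range and library 3 below all shRNA2 libraries. Under scaling by totals, libraries 1 and 2 had 58.2 and 57.7 CPM against 97.4, 68.8 and 78.2 with NC, so that no shRNA3 library then reached the NC range. LATS2 fell 3.67-fold with shRNA1 (log2 -1.88, SE 0.55, adjusted p = 0.0127, edgeR) and 7.05-fold with shRNA2 (log2 -2.82, SE 0.58, adjusted p = 0.00158, edgeR). For shRNA3 the log2 difference was -0.50, with an interval from -1.67 to 0.67. It was -0.0010 without library 3 (adjusted p = 0.996, edgeR) and -3.03 with library 3 alone. LATS2 overlaps LATS2-AS1 on the other strand.

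Over all 9 shRNA libraries, 3 of the 10 genes (CCN2, AMOTL2 and AJUBA) lay below every NC library, as did 25.8% of all genes tested. Another 2 (TEAD4 and WWTR1) lay above every NC library, as did 19.0% of all genes, though under scaling by totals both overlapped with NC. The other 5 overlapped. In the contrast of the mean of the 3 shRNAs with NC, 3 genes were higher and 6 lower, against 27.9% and 32.2% of all genes tested; TEAD1 was the gene not called (log2 -0.29, adjusted p = 0.118, edgeR). It was called without shRNA1 library 3 (adjusted p = 0.0447), without shRNA3 libraries 1 and 2 (0.00666) and under scaling by totals (0.00499). The WWTR1 call in this contrast (log2 0.39, adjusted p = 0.0283) was lost when any NC library was left out (0.0681 to 0.102), at a mean of at least 50 counts (0.0761) and under scaling by totals (0.085).

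**Figure D4:**
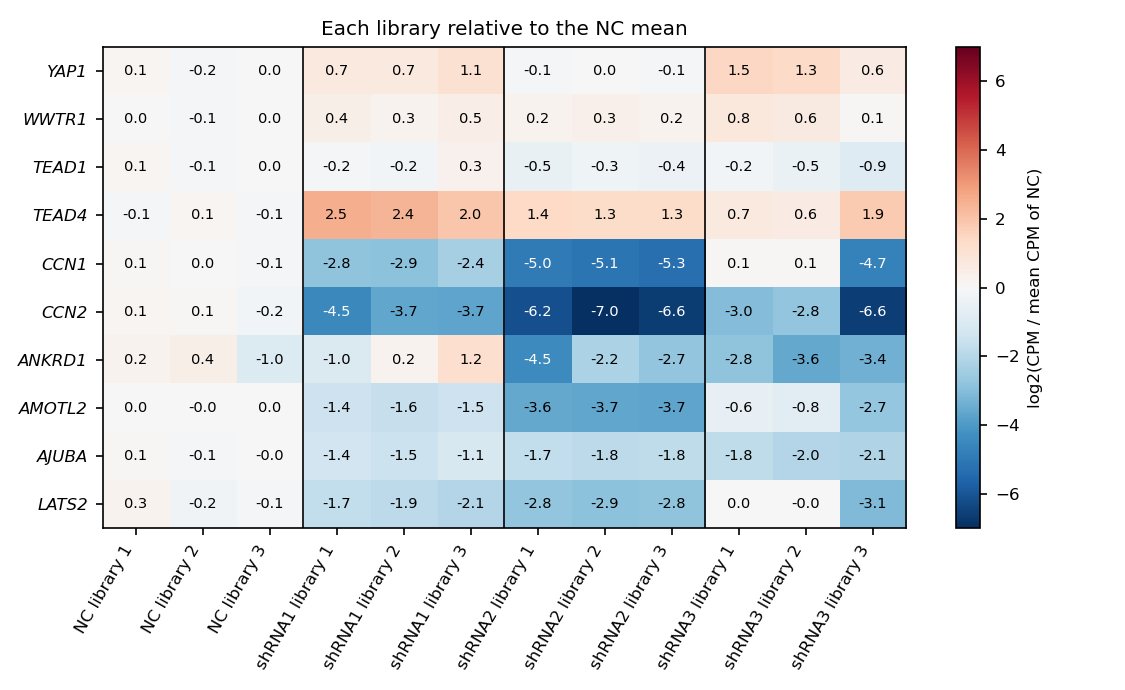
Log2 ratio of the CPM in each of the 12 libraries (columns) to the NC mean, for the 10 genes (rows); red is higher and blue lower. Library 3 of shRNA3 differs from libraries 1 and 2 in CCN1, CCN2, AMOTL2 and LATS2.

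Within shRNA3, the mean CPM of libraries 1 and 2 was 27.7 times that of library 3 for CCN1, 12.8 times for CCN2, 8.39 times for LATS2 and 4.09 times for AMOTL2. TEAD4 went the other way, 2.32 times higher in library 3. In all, 5 of the 10 genes differed at least 2-fold (on CPM + 1), against 33.6% of genes with a mean of at least 1 CPM. YAP1, WWTR1 and TEAD1 were 1.74, 1.56 and 1.47 times higher in libraries 1 and 2. AJUBA differed least (1.16 times). The ANKRD1 ratio (1.19 times) rests on 5, 3 and 5 counts in libraries 1 to 3, too few to measure a difference of this size.

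Compared per length (CPM per kb of annotated exon), the order of the genes changed between groups. With NC, CCN1 was highest at 363 CPM per kb, followed by AMOTL2 (72.7), AJUBA (36.0), CCN2 (30.7), YAP1 (20.3) and WWTR1 (15.7). TEAD1 and LATS2, both at 13.3 CPM per kb, overlapped in their libraries, and TEAD4 (8.89) and ANKRD1 (1.30) came last. With shRNA2, TEAD4 was highest at 22.4 CPM per kb, ahead of YAP1 (19.3) and WWTR1 (18.9), whose libraries overlapped. The libraries of AJUBA (10.5), CCN1 (10.4) and TEAD1 (10.1) overlapped with each other, and AMOTL2 (5.85), LATS2 (1.88), CCN2 (0.325) and ANKRD1 (0.180) followed, the last 2 overlapping. With shRNA1, CCN1 (57.4), TEAD4 (44.2) and YAP1 (35.6) led, and each overlapped with the next. With shRNA3, the libraries of the 5 highest genes overlapped from one to the next, and CCN1 ranged from 13.7 to 381 CPM per kb.

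The hairpins also differed from each other. Between shRNA1 and shRNA2, 5 of the 10 genes were higher with shRNA1 and 0 lower, against 5.78% and 6.53% of all genes tested. These were ANKRD1 (9.27-fold), CCN2 (6.27-fold), AMOTL2 (4.39-fold), YAP1 (1.84-fold) and AJUBA (1.37-fold; adjusted p = 0.0123, 0.0361, 0.00821, 0.0207 and 0.0446, edgeR). With the replicate number as a block, 3 were called (3.69% and 4.85% of all genes higher and lower). When 1 shRNA1 or shRNA2 library was left out, between 1 and 4 were called. The AMOTL2 call held in all 6 of these fits, the ANKRD1 call in 4 and the YAP1 call in 1. The CCN2 call (adjusted p = 0.0641 to 0.131) and the AJUBA call (0.0714 to 0.157, both edgeR) were lost in every one. With only these groups fitted, 8 of the 10 were called, as were 6251 genes in all. CCN1, TEAD4 and LATS2 were then among them (adjusted p = 0.000138, 0.00175 and 0.0016, edgeR). Between shRNA1 and shRNA3, 3 were higher with shRNA1 and 0 lower (11.9% and 18.1% of all genes): ANKRD1 (11.9-fold), TEAD4 (2.22-fold) and AJUBA (1.57-fold). Without library 3 of shRNA3, 3 were higher with shRNA1 and 6 lower (32.4% and 31.0% of all genes in that fit); the 6 were YAP1, WWTR1, CCN1, CCN2, AMOTL2 and LATS2. With library 3 alone, 6 were higher and 0 lower (3.22% and 4.88% of all genes), and CCN1, CCN2, AMOTL2 and LATS2 were then among those higher with shRNA1. Between shRNA2 and shRNA3, 0 were higher and 5 lower with shRNA2 (1.91% and 6.43% of all genes): CCN1 (24.7-fold), CCN2 (8.55-fold), AMOTL2 (5.75-fold), LATS2 (4.98-fold) and YAP1 (2.36-fold). Without library 3 of shRNA3, 1 was higher and 6 lower with shRNA2 (30.7% and 28.5% of all genes), and with library 3 alone 0 were higher and 1 lower (0.571% and 0.707% of all genes). Leaving out any shRNA2 library, or shRNA3 library 1 or 2, left 0 by edgeR, where 5 had an unadjusted p under 0.05. Of all genes, these fits called 19 without shRNA3 library 1 and 0 in each other case. Over all libraries, DESeq2 called 5 of the 10 and 3793 genes in all.

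Other genes of the Hippo pathway were called in both directions. Of 28 listed genes, 25 passed the filter; AMOT, DCHS1 and VGLL1 did not. With shRNA1, 7 were higher and 9 lower, with shRNA2 7 and 12, and with shRNA3 7 and 11. Over all genes tested, 26.8%, 24.6% and 26.4% were called higher and 30.6%, 28.4% and 27.6% lower. The median log2 fold change of the list was -0.12, -0.22 and -0.25.

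The Ajuba-family genes were split. AJUBA fell, but WTIP and LIMD1, its family members, rose with each hairpin. WTIP was at 1.16, 1.33 and 1.93 CPM with NC and at 10.8 to 25.0 CPM in the 9 shRNA libraries, a rise of 16.3-fold, 8.85-fold and 14.5-fold with shRNA1, shRNA2 and shRNA3. LIMD1 was at 14.5 to 17.7 CPM with NC and rose 2.75-fold, 2.84-fold and 3.55-fold. Per length, mean AJUBA was 36.0 CPM per kb with NC, against 1.29 for LIMD1 and 0.107 for WTIP. With shRNA3 it was 9.16, against 4.59 and 1.56 CPM per kb.

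The vestigial-like (VGLL) cofactors, which bind TEAD factors, were split as well. VGLL4, which competes with YAP1 for TEAD, was at 28.3 to 34.0 CPM with NC and rose 3.53-fold, 2.13-fold and 3.46-fold with shRNA1, shRNA2 and shRNA3. VGLL3 fell 4.91-fold, 12.5-fold and 6.09-fold. VGLL2 had 145, 162 and 143 counts with NC and 0 in all 9 shRNA libraries, which makes it at least 50.2-fold, 44.0-fold and 38.2-fold lower (against 3 counts per library). Among the other TEAD genes, TEAD2 rose 1.62-fold with shRNA2 and 1.96-fold with shRNA3, and TEAD3 fell 1.91-fold with shRNA1 and 1.59-fold with shRNA2.

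The share of all genes called lower with each hairpin is not given here. Of the 25 Hippo pathway genes tested, 8 had every shRNA library below every NC library, against 25.8% of all genes. Another 5 had every shRNA library above, against 19.0% of all genes. Upstream of LATS, genes were named only if called in 1 direction with all 3 hairpins, so this agreement follows from the choice. Several of those named were lower. These were the scaffold WWC1 (KIBRA; 2.08-fold, 4.45-fold and 3.86-fold), the kinases TAOK3 (2.06-fold, 2.16-fold and 3.17-fold) and STK3 (MST2; 1.48-fold, 2.35-fold and 1.92-fold), NF2 (merlin; 1.58-fold, 1.84-fold and 1.85-fold) and FRMD6 (1.57-fold, 4.44-fold and 2.21-fold). The atypical cadherin FAT1 rose 2.15-fold, 3.13-fold and 1.80-fold, and the kinase MAP4K4 rose 1.83-fold, 1.68-fold and 1.53-fold. LATS1, the paralogue of LATS2, had 33.4 to 37.7 CPM with NC and rose 2.30-fold with shRNA1. With shRNA2 LATS1 had a log2 difference of 0.66 (adjusted p = 0.0899), and with shRNA3 it had 30.3 and 23.9 CPM in libraries 1 and 2 and 69.7 in library 3. LATS1, TEAD2 and TEAD3 were named for their kinship to the 10 genes and not by their change.

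Of 17 further genes of a published YAP/TAZ target signature, more were lower than higher with each hairpin. All 17 passed the filter, and 5 were higher and 9 lower with shRNA1, 4 and 11 with shRNA2, and 6 and 10 with shRNA3, against 26.8% and 30.6%, 24.6% and 28.4%, and 26.4% and 27.6% of all genes. The median log2 fold change was -1.14, -1.55 and -1.14. TGFB2, a transforming growth factor beta ligand, had 1599, 878 and 1093 counts with NC, 24 to 48 with shRNA1 and 0 to 2 with shRNA2 and shRNA3. It fell with each hairpin, by 34.6-fold with shRNA1; the fitted folds for shRNA2 and shRNA3 depend on the prior count and are not given. IGFBP3, which binds insulin-like growth factors, had 332 to 408 CPM with NC and fell 8.90-fold, 5.30-fold and 6.23-fold. CCDC80, a matrix protein, had 99.0 to 129 CPM with NC and fell 8.08-fold, 9.44-fold and 9.88-fold. CRIM1, FJX1, ARHGEF17, the phosphatase gene PTPN14 and the receptor tyrosine kinase gene AXL fell between 2.18-fold (AXL with shRNA2) and 5.55-fold (FJX1 with shRNA3).

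Some genes of the same signature rose with each hairpin, and the share of all genes that did so is not given here. FOXF2, a forkhead factor, had 8.02 to 9.16 CPM with NC and rose 5.40-fold, 5.71-fold and 3.23-fold; its shRNA3 libraries were at 14.3, 16.1 and 53.9 CPM. NT5E, which encodes the ectonucleotidase CD73, rose 3.16-fold, 1.88-fold and 1.91-fold. MYOF and DOCK5 rose between 1.43-fold and 2.06-fold. GADD45A, a stress-response gene, was named after its values were seen: it fell 2.84-fold with shRNA2 and rose 2.74-fold with shRNA3, where libraries 1 and 2 had 368 and 389 CPM and library 3 had 43.6.

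**Figure D5:**
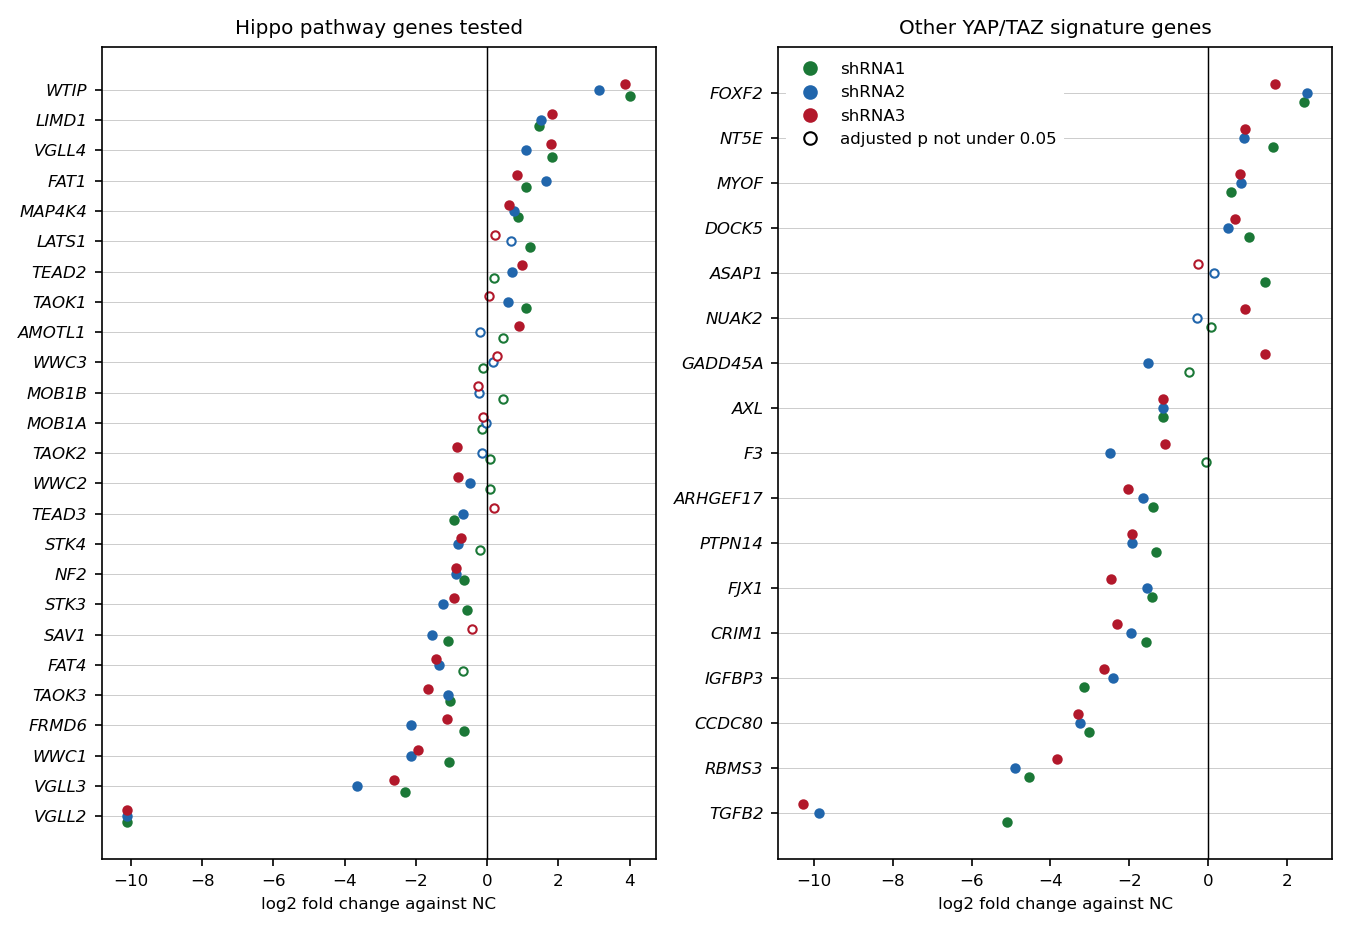
Fitted log2 fold change against NC (x axis) of the 25 Hippo pathway genes tested (left) and 17 other YAP/TAZ signature genes (right) with shRNA1 (green), shRNA2 (blue) and shRNA3 (red); open points did not pass an adjusted p of 0.05. WTIP and LIMD1 lie to the right, and the points of VGLL2, RBMS3 and TGFB2 at the lower left rest on groups with few or 0 counts and are not sizes of effect.

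The genes whose levels followed CCN1 and CCN2 most closely were found by Pearson's r of log2(CPM + 1) over the 12 libraries among 10187 genes, as a description; the points share libraries and scaling. For CCN1 they were NEDD4L, a ubiquitin ligase gene (r = 0.987), GRAMD2B (r = 0.984) and KDM7A, a histone demethylase gene (r = 0.980). NEDD4L averaged 110.2 CPM with NC, 74.9 with shRNA1 and 43.5 with shRNA2, and stood at 124, 117 and 43.9 CPM in the 3 shRNA3 libraries. For CCN2 they were SAA1, which encodes an acute-phase protein (r = 0.988), PDP1 (r = 0.983) and CPVL (r = 0.982). SAA1 averaged 132 CPM with NC, 4.88 with shRNA1, 0.940 with shRNA2 and 7.65 with shRNA3. This gene is nearly identical to SAA2, so its counts are uncertain. With 4 groups and 12 libraries, such values mainly repeat the differences between groups.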

How the data were processed

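RNA was sequenced from 12 SCC-15 libraries, 3 in each of 4 groups, and groups and library numbers were taken from the sample titles. The authors deposited unscaled estimated counts for each gene; 13.8% of values are not whole, and how these arose is not given in the sources used here. HISAT2, HTSeq 0.11.2 and GRCh38 are named in the submitters' processing notes, and per the labels' protocols the NEBNext Ultra RNA kit was used for library preparation.

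Counts were rounded. Of the identifiers, 60463 matched a symbol, and 27609 were at 0 in all libraries. Genes were filtered with filterByExpr (minimum count 10, minimum total 15) and scaled by TMM. All 12 libraries were fitted in 1 model with 4 groups and no block, with edgeR 4.0.16 (R 4.3.3, robust glmQLFit, two-sided glmQLFTest). The code was tested on simulated data with few genes changed in a single group. That setting differs from these data, where many genes were called with each hairpin. P-values were adjusted by Benjamini-Hochberg over 17532 genes. CPM are TMM-scaled, and intervals are 95%. Lengths and positions are from GENCODE 29. The residual degrees of freedom were 8 and the common biological coefficient of variation 0.289. Depth was 17286934 to 19567192 counts per library, so low genes such as ANKRD1 carry more counting error.

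The 10 genes and the other lists were chosen with earlier results of these data known. From the 2 other lists, genes with a mean of at least 1 CPM that passed in 1 direction for all 3 shRNAs were named, up to 12 a list. For CCN1 and CCN2, the 3 best correlated genes with a mean of at least 10 CPM were named. Alternatives were DESeq2 1.42.0 (size factors, Wald test), no filter, a mean of at least 50 counts, only the groups compared, the replicate block, a threshold of 0.01, leaving out libraries, log2(CPM + 1) means and, added after seeing the data, scaling by totals alone. Protein sequences were not used here.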

Additional observations from a re-analysis of the deposited data

How the results depend on the processing

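Of 1062 values of single genes under the alternatives, 909 kept their direction and, where tested, their side of the threshold. Of the others, 96 lost the call, 31 gained it and 26 changed sign. The log2(CPM + 1) means have no test and were judged by direction alone. Against NC, the counts of the 10 genes called with shRNA1 and shRNA2 were 7 in every fit that left out 1 library. With shRNA3 the count was 5 to 7 in those fits (8 with all libraries), and 5 at a threshold of 0.01 or with only the groups compared. TEAD1 with shRNA1 was -0.02 under DESeq2 size factors and the DESeq2 Wald test, -0.08 under library totals and a mean of at least 50 counts, -0.0048 on log2(CPM + 1) means, and -0.17 to 0.11 when 1 library was left out. In the same leave-one-out fits, ANKRD1 with shRNA1 ran from -0.26 to 0.78, YAP1 with shRNA2 from -0.14 to 0.0046 and CCN1 with shRNA3 from -0.81 to 0.06. The cause of these changes was not tested.

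Comparisons between hairpins changed most. For shRNA1 against shRNA2, 5 of the 10 genes and 2158 genes in all were called; the alternatives gave 3 and 1420 with no filter, 1 and 530 at a threshold of 0.01, 8 and 6251 with only the groups compared, 3464 genes by DESeq2, and 1 to 4 and 559 to 2795 when 1 library was left out. For shRNA1 against shRNA3 (3 and 5258), they gave 5 of the 10 by DESeq2, 1249 genes at 0.01, 0 and 0 with only the groups compared (3 and 4295 at an unadjusted p under 0.05; DESeq2 over all libraries called 6749 genes), 6 and 1547 without libraries 1 and 2 of shRNA3, and 2 to 9 and 1788 to 11573 when 1 library was left out. For shRNA2 against shRNA3 (5 and 1462), they gave 2 and 911 with no filter, 0 and 4 at 0.01, 0 and 0 with only the groups compared (5 and 3186 at an unadjusted p under 0.05), 596 genes under library totals, 3793 by DESeq2, 1 and 244 without libraries 1 and 2 of shRNA3, and 0 to 7 and 0 to 10800 when 1 library was left out. Without libraries 1 and 2 of shRNA3, the log2 difference of shRNA1 from shRNA3 became 0.20 for YAP1, 0.30 for WWTR1 (0.14 under library totals), 2.05 for CCN1, 2.66 for CCN2, 1.21 for AMOTL2 and 1.17 for LATS2, and that of shRNA2 from shRNA3 became 0.20 for WWTR1, -0.53 for TEAD4, 0.01 for CCN2 and 0.23 for LATS2. When 1 library was left out, CCN2 in shRNA1 against shRNA3 ran from -0.98 to 0.02, and in shRNA2 against shRNA3 TEAD1 ran from -0.06 to 0.23, TEAD4 from -0.07 to 0.72 and ANKRD1 from -0.11 to 0.77.

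Deviations from the group means gave no sign that the library numbers paired the samples. They correlated at -0.0107 on average between same-numbered libraries of different groups (18 pairs), and at 0.00443 between unlike-numbered ones (36 pairs). With the replicate block, 3 of the 10 genes were called for shRNA1 against shRNA2, and 3 of the 10 and 378 genes in all for shRNA2 against shRNA3.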
